A study of Mus musculus with 2 samples.

Results

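Integrins are cell surface receptors made of 1 alpha chain and 1 beta chain, and 10 integrin genes that serve T cell adhesion and homing were followed here by their gene symbols, out of 15574 genes listed in either deposited file. They are the alpha chain genes Itgal, Itga4, Itgae, Itgav and Itga6 and the beta chain genes Itgb2, Itgb1, Itgb7, Itgb3 and Itgb8. Of the 10, 9 had reads and 7 reached a mean of 1 CPM (counts scaled for the sizes of the libraries), the level from which genes are called measured below. RNA was sequenced from cultured mouse Th17 cells, the helper T cells that secrete IL-17A and IL-17F, in 1 library labelled CREB KO and 1 labelled wildtype. Both are of C57BL/6 background, and both were grown from naive T cells over 6 days in medium holding IL-1 beta, IL-6, IL-23 and TGF-beta, with 4 h on plate-bound CD3 antibody at the end. The product of Creb1, CREB, controls transcription in answer to cyclic AMP, and the study asks which genes it regulates in these cells. How Creb1 was deleted, in which cells, and how many mice gave the T cells are points the labels leave out.

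An integrin reaches the surface only as a pair, so a chain without its partner makes no receptor. The alpha chain encoded by Itgal pairs with the beta chain of Itgb2 to form LFA-1, which binds ICAM-1 on endothelium and on antigen-presenting cells. Itga4 pairs with Itgb1 to form VLA-4, a receptor for VCAM-1 and fibronectin, or with Itgb7 to form the gut-homing receptor that binds MAdCAM-1. Itgae, which encodes the alpha E chain CD103, also pairs with Itgb7, and the pair binds E-cadherin on epithelium. CD103 is induced in T cells by TGF-beta. Itgav pairs with Itgb1, Itgb3 or Itgb8, and its pair with Itgb8 releases active TGF-beta from the latent complex. Itga6 pairs with Itgb1 as a laminin receptor. Inside the cell, talin (Tln1) and kindlin-3 (Fermt3) bind the beta chain tails and switch integrins on, downstream of the small GTPase Rap1.

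There were 23938112 counted reads in the library labelled CREB KO and 26525471 in the wildtype library. With 1 library per group no p-value can be given, and each difference lies between 2 libraries, with 95% intervals that cover counting error only. PCR copies are not independent molecules, so these intervals may be too narrow. Creb1 itself had 25 reads in the library labelled CREB KO and 13 in the wildtype library, a ratio of 2.08 (1.04 to 4.51). Its mean of 0.766 CPM lies under the level from which genes are called measured. So few reads, counted over the whole gene, neither bear out the label nor contradict it. Directions below refer to the library carrying that label. T cell markers were abundant (3239 CPM summed over 6 genes in the library labelled CREB KO and 3384 CPM in the wildtype library). Th17 markers summed to 984 CPM in the library labelled CREB KO and 2175 CPM in the wildtype library, the gap being mostly Il17f and Il17a. Markers of other cells that carry integrins were low: 5 platelet and megakaryocyte genes summed to 4.42 CPM in the library labelled CREB KO and 4.08 CPM in the wildtype library, with Pf4 and Gp9 at 0 reads in both. The 5 macrophage and monocyte genes summed to 9.21 CPM in the library labelled CREB KO and 9.98 CPM in the wildtype library, mostly Cd68, with Lyz2 and Adgre1 at 0. In the library labelled CREB KO the sums were 3.12 CPM for 5 dendritic cell genes, 2.21 CPM for 5 B cell genes, 9.75 CPM for 2 CD8 T cell genes and 3.46 CPM for 4 stromal and epithelial genes. In the wildtype library they were 3.18, 2.04, 8.96 and 2.68 CPM for the same lists, and 3 NK cell genes had no reads in either library. The CD8 sums were all Cd8b1, with Cd8a at 0 reads in both. Cd8a and the 3 NK cell genes have 2 curated RefSeq transcripts each and Adgre1 has 3, whereas Pf4, Gp9 and Lyz2 have 1. For genes with several transcripts, the limit given below for the 0 of Itgal holds as well.

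None of the 7 measured integrins was 1.2-fold or more apart with an interval excluding 1, in either direction. Among all 10462 measured genes, 6.19% were higher in the library labelled CREB KO by this rule and 5.48% were lower, and at 1.5-fold the shares were 2.48% and 1.5%. By the weaker criterion of an interval wholly on one side of 1, Itga4, Itgav and Itgb1 were above 1 and Itgb2 and Itgb7 below it, so 3 and 2 of 7. By that criterion 16.2% of all measured genes were above 1 and 19.5% below. Such intervals are narrow for abundant genes. The median log2 ratio of the 7 was -0.07, beside -0.01 over all measured genes, and their log2 ratios ran from -0.38 for Itga6 to 0.26 for Itga4. In bulk RNA, fewer cells of a type and less RNA per cell cannot be told apart.

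**Figure D1:**
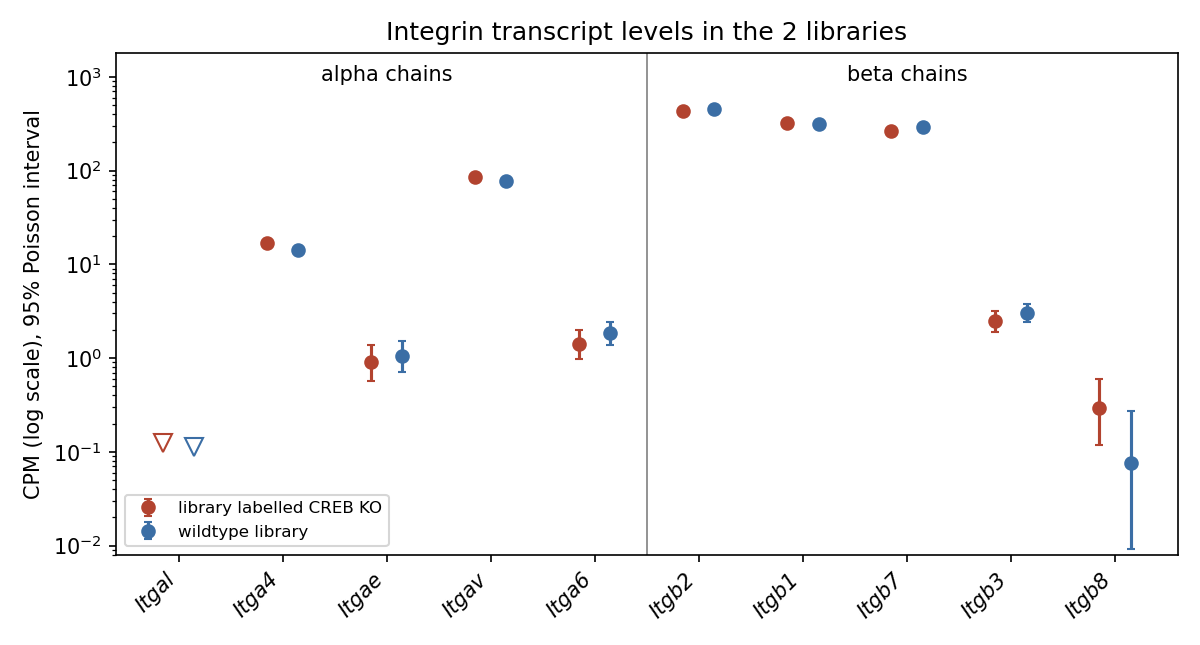
Level of each integrin gene in CPM on a log axis, with 95% Poisson intervals, for the library labelled CREB KO (left point of each pair) and the wildtype library (right point). Open triangles for Itgal, which had 0 reads, mark a fixed limit of 3 reads (0.125 and 0.113 CPM) and not the Poisson limit. Itgb2, Itgb1 and Itgb7 lie between 264 and 455 CPM, and every other gene lies below 100 CPM.

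Of the 9 contrasts between chains with reads, that of Itga4 against Itgb7 was the largest whose interval excluded 1, and the promoters of the alpha 4 integrin chains are shown because the labelled factor binds DNA. RefSeq promoter windows of the build GRCm38.p6 (250 bases before to 50 after the gene start, read on the gene's strand) were found for 5 of 10 members, Itga4, Itgb1, Itgb7, Itgav and Itgb8. The full cyclic AMP response element TGACGTCA was in 0 of these 5 windows and in 1.79% of all 32851 windows. Its core TGACG, searched on both strands and contained in the full element, was in 1 of 5 windows and in 20.8% of all. Capitals below mark that core, which starts 21 bases before the annotated start of Itgb1; a match of letters describes the window and shows no binding. The windows are chr2:79255176-79255475 (+ strand), chr15:102231886-102232185 (- strand) and chr8:128685404-128685703 (+ strand).
Itga4: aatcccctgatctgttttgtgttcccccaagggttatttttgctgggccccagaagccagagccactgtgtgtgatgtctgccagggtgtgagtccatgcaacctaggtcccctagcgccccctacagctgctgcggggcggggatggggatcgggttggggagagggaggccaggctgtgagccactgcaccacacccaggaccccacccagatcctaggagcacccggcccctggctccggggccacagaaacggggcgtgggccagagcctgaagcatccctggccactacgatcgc
Itgb7: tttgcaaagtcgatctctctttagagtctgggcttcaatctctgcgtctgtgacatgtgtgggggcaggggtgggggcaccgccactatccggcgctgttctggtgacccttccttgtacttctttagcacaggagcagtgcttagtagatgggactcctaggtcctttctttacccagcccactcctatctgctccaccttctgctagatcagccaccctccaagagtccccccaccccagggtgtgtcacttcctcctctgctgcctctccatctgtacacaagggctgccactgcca
Itgb1: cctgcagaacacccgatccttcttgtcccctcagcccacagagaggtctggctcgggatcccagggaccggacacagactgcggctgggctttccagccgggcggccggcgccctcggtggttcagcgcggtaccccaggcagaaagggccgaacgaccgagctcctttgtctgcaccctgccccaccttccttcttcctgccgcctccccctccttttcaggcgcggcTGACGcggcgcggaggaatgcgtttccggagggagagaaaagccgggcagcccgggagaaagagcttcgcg

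Itga4, which encodes the alpha 4 chain of both receptors, had 407 reads (17.0 CPM, 15.3 to 18.7) in the library labelled CREB KO and 375 reads (14.2 CPM, 12.8 to 15.7) in the wildtype library. It was thus 1.196-fold higher in the library labelled CREB KO (1.04 to 1.38), just under the 1.2-fold rule, and with scaling by total counts it would pass. Of the 7215 genes that averaged at least 10 CPM, 8.33% were as far from a ratio of 1 or farther. Most of that reach is of higher level than Itga4, whose mean was 15.6 CPM, and ratios spread more at lower levels. The SD of the log2 ratios was 0.12 from 100 CPM, 0.16 from 10 CPM and 0.27 from 1 CPM. The share among genes of like level was not tested. The gene lies on chromosome 2 (79255426 to 79333123, + strand, GRCm38) and overlaps Cerkl on the other strand, so some reads may be shared if strand was ignored in counting.

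Itgb7, the beta chain of the gut-homing receptor and the partner of CD103, went the other way. It had 6325 reads (264 CPM) in the library labelled CREB KO and 7817 reads (295 CPM) in the wildtype library, and was 1.12-fold lower in the library labelled CREB KO (1.08 to 1.16). As many as 22.3% of genes with 10 CPM or more were that far from 1. It lies on chromosome 15 (102215995 to 102231944, - strand) and overlaps no other annotated gene.

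Itgb1, the beta chain shared by VLA-4 and many matrix receptors, was close to even. The library labelled CREB KO had 7741 reads (323 CPM) and the wildtype library 8222 reads (311 CPM), a ratio of 1.04 (1.01 to 1.07), and 68.4% of genes with 10 CPM or more were as far from 1. Itgb1 lies on chromosome 8 (128685654 to 128733200, + strand) with no overlapping gene.

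The alpha 4 chain and its beta partners were also set against each other within the libraries, which needs no scaling. The ratio of Itga4 between libraries was 1.34 times that of Itgb7 (exact conditional interval 1.16 to 1.55) and 1.15 times that of Itgb1 (0.996 to 1.33, which includes 1). Itga4 made up 6.05% (5.49 to 6.64, exact Clopper-Pearson) of the reads of Itga4 and Itgb7 together in the library labelled CREB KO and 4.58% (4.14 to 5.05) in the wildtype library. Between the partners of alpha 4, the ratio of Itgb7 was 0.859 times that of Itgb1 (0.821 to 0.8996). Itgb7 held 44.97% (44.1 to 45.8) of the reads of both beta chains in the library labelled CREB KO and 48.7% (48.0 to 49.5) in the wildtype library. These intervals hold counting error only, and the ratios of abundant genes spread more widely than that. The log2 ratios of the 2162 genes that reached 100 CPM on average had an SD of 0.12. Those of the 7215 genes that reached 10 CPM, Itga4 among them, had an SD of 0.16. These SDs are of single genes, and a contrast holds the spread of both its chains. How often other gene pairs lie as far apart was not tested.

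**Figure D2:**
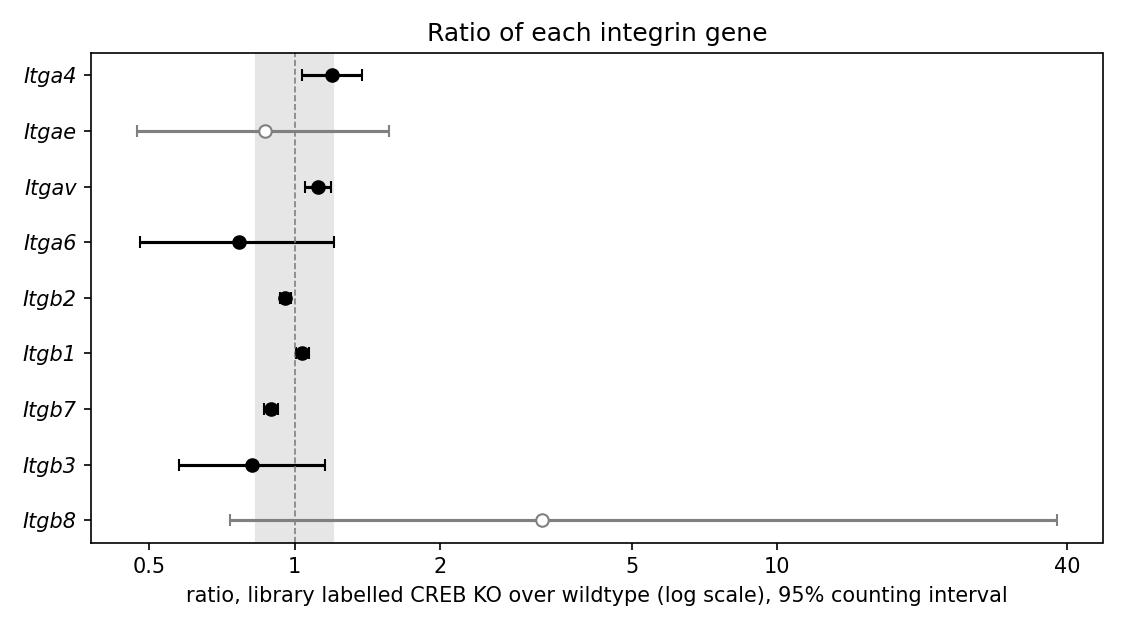
Ratio of the library labelled CREB KO over the wildtype library for the 9 integrin genes with reads, on a log axis, with exact 95% counting intervals; the grey band spans ratios within 1.2-fold and open grey points are genes under a mean of 1 CPM. Points of Itgb2, Itgb1, Itgb7 and Itgav sit inside the band with narrow intervals, Itga4 at 1.196 sits on its edge, and the intervals of Itgb3, Itga6, Itgae and Itgb8 include 1.

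**Figure D3:**
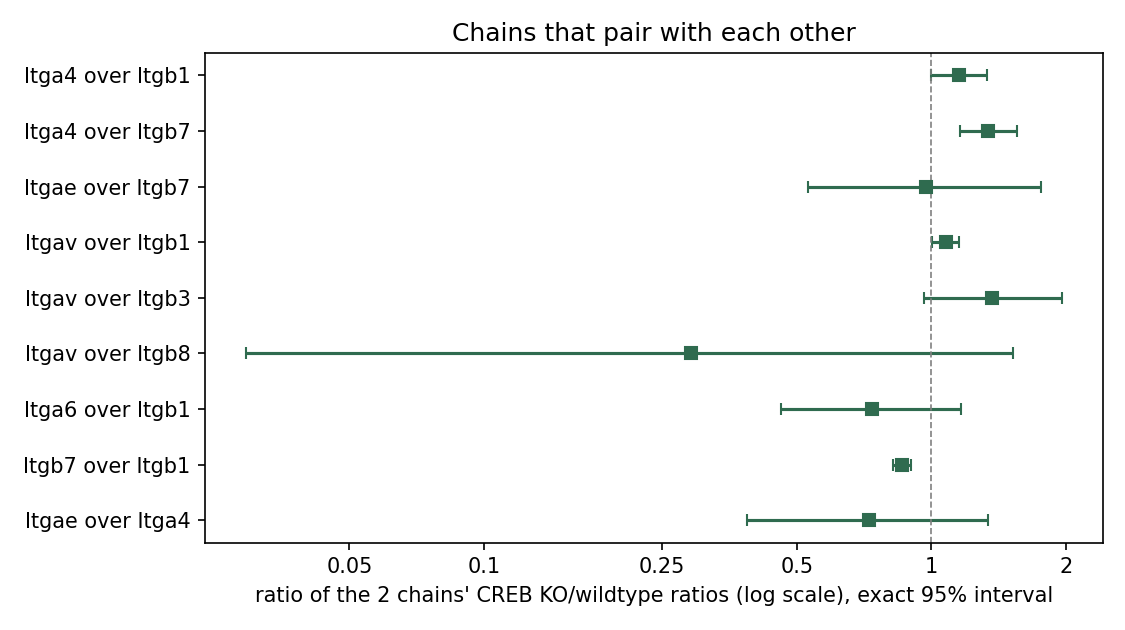
For each pair, the ratio of the first chain (library labelled CREB KO over wildtype) divided by that of the second, on a log axis, with exact conditional 95% intervals. Itga4 over Itgb7 lies to the right of 1 at 1.34 and Itgb7 over Itgb1 to the left at 0.859, Itgav over Itgb1 lies just right of 1 at 1.08, and the other intervals include 1.

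For LFA-1, the chains could not be compared, because Itgal had 0 reads in both libraries. At these depths 0 reads allow up to 0.125 CPM (3 reads) in the library labelled CREB KO and 0.113 CPM in the wildtype library, for counting error only. Its partner Itgb2 was the most abundant integrin gene, with 10445 reads (435 CPM) in the library labelled CREB KO and 12043 reads (455 CPM) in the wildtype library. It was 1.05-fold lower in the library labelled CREB KO (1.02 to 1.07), a distance from 1 that 62.1% of genes with 10 CPM or more reached. The other alpha chains that pair with Itgb2 were near 0 as well: Itgam had no reads, Itgax had 7 reads in the library labelled CREB KO and 12 in the wildtype library, and Itgad had 2 in each. All 4 alpha partners together thus had 9 reads in the library labelled CREB KO and 14 in the wildtype library. Itgal lies on chromosome 7 (127296260 to 127335138, + strand) and Itgb2 on chromosome 10 (77530252 to 77565708, + strand), and neither overlaps another annotated gene.

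The 0 of Itgal does not show that these cells lack its transcript. Ptprc, which encodes the CD45 antigen of all leukocytes and was picked after its value was seen, had only 75 reads in the library labelled CREB KO and 81 in the wildtype library, and Cd44 had 110 in the library labelled CREB KO and 151 in the wildtype library. Itgal is annotated with 4 curated RefSeq transcripts, Ptprc with 3 and Cd44 with 6. Over the members and the pathway genes listed below, the 48 genes with 1 curated transcript had a median of 40.5 CPM and the 73 with 2 or more had 3.43 CPM. A mean under 1 CPM, as for Itgal, was found for 14 of the 48 and for 23 of the 73. Among the members, Itga4, Itgb1, Itgb7, Itgav, Itgb3 and Itgb8 have 1 curated transcript, Itgae and Itga6 have 2, Itgb2 has 3 and Itgal has 4. The counts are described as uniquely assigned reads, without saying what that means for reads shared by several transcripts of a gene. Whether such reads were left uncounted was not tested. If they were, levels of genes with several transcripts are too low. A ratio between the libraries then compares the same part of a gene, and whether that part stands for the whole gene was not tested.

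Itgae, which encodes CD103, had few counted reads although its partner was abundant. With 2 curated transcripts against 1 for Itgb7, its level falls under the limit given for Itgal. It had 22 reads (0.917 CPM) in the library labelled CREB KO and 28 reads (1.06 CPM) in the wildtype library, which puts its mean just under 1 CPM, and the ratio of 0.868 (0.472 to 1.57) leaves either direction possible. The ratio of Itgae was 0.971 times that of Itgb7 (0.529 to 1.76) and 0.724 times that of Itga4 (0.388 to 1.34), the other alpha chain that Itgb7 can take. It lies on chromosome 11 (73090583 to 73147446, + strand), with Haspin on the other strand inside its bounds.

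Itgav, the alpha chain of the receptors that activate latent TGF-beta, had 2067 reads (86.1 CPM) in the library labelled CREB KO and 2038 reads (77.0 CPM) in the wildtype library. It was 1.12-fold higher in the library labelled CREB KO (1.05 to 1.19), and 23.4% of genes with 10 CPM or more were as far from 1. Its beta partners differed widely in abundance, with Itgb1 the only abundant one of those followed. Itgb3, the beta 3 chain best known from platelets, had 60 reads (2.50 CPM) in the library labelled CREB KO and 81 reads (3.06 CPM) in the wildtype library, with a ratio of 0.818 (0.575 to 1.15). Itgb8 had 7 reads in the library labelled CREB KO and 2 in the wildtype library, a ratio of 3.26 with an interval from 0.735 to 38.1, too few reads for a direction. The ratio of Itgav was 1.08 times that of Itgb1 (1.01 to 1.15), 1.37 times that of Itgb3 (0.963 to 1.96) and 0.290 times that of Itgb8 (0.0293 to 1.52). Itgav lies on chromosome 2 (83724397 to 83806916, + strand, overlapping Dnmt3l-ps1 and Gm13684 on the other strand), Itgb3 on chromosome 11 (104608000 to 104670476, + strand) and Itgb8 on chromosome 12 (119158022 to 119238802, - strand).

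Itga6, the alpha chain of a laminin receptor, had 34 reads (1.42 CPM) in the library labelled CREB KO and 49 reads (1.85 CPM) in the wildtype library. The ratio was 0.767 (0.479 to 1.21), and it was 0.737 times that of Itgb1 (0.461 to 1.17), so neither interval excludes 1. It lies on chromosome 2 (71745616 to 71858416, + strand) and overlaps 4 unnamed gene models, 2 of them on the other strand.

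Levels of different chains were compared per length, as CPM per kb of merged exons. Itgb2 was highest at 143 CPM per kb in the library labelled CREB KO and 149 in the wildtype library. Itgb7 followed at 95.1 CPM per kb in the library labelled CREB KO and 107 in the wildtype library, and Itgb1 came next at 79.0 CPM per kb in the library labelled CREB KO and 76.2 in the wildtype library. A wide gap separated these 3 beta chains from the rest. In the library labelled CREB KO Itgav had 8.02 CPM per kb, Itga4 1.21, Itgb3 0.424, Itgae 0.200 and Itga6 0.157. In the wildtype library Itgav had 7.17 CPM per kb, Itga4 1.01, Itgb3 0.519, Itgae 0.231 and Itga6 0.205. Itgb8 came last of those with reads, at 0.0264 CPM per kb in the library labelled CREB KO and 0.00684 in the wildtype library. Itgae and Itga6, neighbours in this order, did not differ beyond their counting intervals in either library. The order of Itgb7 and Itgb1 also turned when the longest coding sequence stood in for exon length, with Itgb7 at 0.809 times Itgb1 in the library labelled CREB KO and 0.941 times in the wildtype library.

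In 5 of the 7 pairs with reads for both chains the alpha chain was lower per kb than its beta chain in both libraries; Itgav over Itgb3 and Itgav over Itgb8 were the exceptions. Itgb7 exceeded Itga4 78.4-fold per kb in the library labelled CREB KO and 105-fold in the wildtype library, and Itgb1 exceeded Itga4 65.1-fold in the library labelled CREB KO and 75.1-fold in the wildtype library. Itgb1 exceeded Itgav less, 9.86-fold in the library labelled CREB KO and 10.6-fold in the wildtype library. Itgav exceeded Itgb3 18.9-fold in the library labelled CREB KO and 13.8-fold in the wildtype library. The size of these multiples depends on the length used, by up to 3.94-fold, but no alpha and beta pair changed order. Itga4, for example, has 13.978 kb of merged exons and 3096 bp of coding sequence. Itgae and Itga6 have 2 curated transcripts and their beta chains 1, so the limit given for Itgal bears on those pairs.

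Of the 16 other integrin chains, 13 had reads and 5 were measured, some of them abundant partners of Itgb1. Itga7, a laminin-binding alpha chain, had 2324 reads (96.8 CPM) in the library labelled CREB KO and 1999 reads (75.6 CPM) in the wildtype library and was 1.28-fold higher in the library labelled CREB KO (1.21 to 1.36). Itga5, the alpha chain of the classical fibronectin receptor, had 1130 reads (47.1 CPM) in the library labelled CREB KO and 999 reads (37.8 CPM) in the wildtype library and was 1.25-fold higher (1.14 to 1.36). All 5 measured chains (Itga2b, Itga3, Itga5, Itga7 and Itga10) had ratios above 1, with a median log2 ratio of 0.28, 2 past the 1.2-fold rule and 0 lower. Only 3 of the 5 intervals excluded 1. Among all measured genes, 6.19% were higher and 5.48% lower by the 1.2-fold rule, and the median log2 ratio was -0.01. Relative to Itgb1, the ratio of Itga7 was 1.23 times (1.15 to 1.32), that of Itga5 1.201 times (1.096 to 1.32) and that of Itga3 1.01 times (0.967 to 1.06); these 3 pairs were added after the values were seen.

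Per kb, Itga3 was the most abundant of 12 alpha chains that can pair with Itgb1, at 52.8 CPM per kb in the library labelled CREB KO and 50.3 in the wildtype library. That was 62.3% of the summed alpha levels per kb in the library labelled CREB KO and 65.5% in the wildtype library. In the library labelled CREB KO Itga7 held 14.1%, Itga5 11.3%, Itgav 9.45% and Itga4 1.43%. In the wildtype library Itga7 held 12.2%, Itga5 9.97%, Itgav 9.34% and Itga4 1.32%. Per kb of coding sequence, a length chosen after seeing the data, Itga3 was still the highest, with 54.6% in the library labelled CREB KO and 57.8% in the wildtype library, but the order below it changed. In the library labelled CREB KO Itga7 then held 16.4%, Itgav 15.9%, Itga5 8.64% and Itga4 3.18%. In the wildtype library Itgav held 15.9%, Itga7 14.2%, Itga5 7.70% and Itga4 2.95%. Per kb of the longest coding transcript, also chosen after seeing the data, Itga7 was second to Itga3 in both libraries. Itga7 then held 21.5% in the library labelled CREB KO and 18.7% in the wildtype library, and Itgav 10.9% in each. Itga3 has 3 curated transcripts, Itga7 and Itga5 have 2, and Itgav and Itga4 have 1. The limit given for the 0 of Itgal thus bears on these shares.

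**Figure D4:**
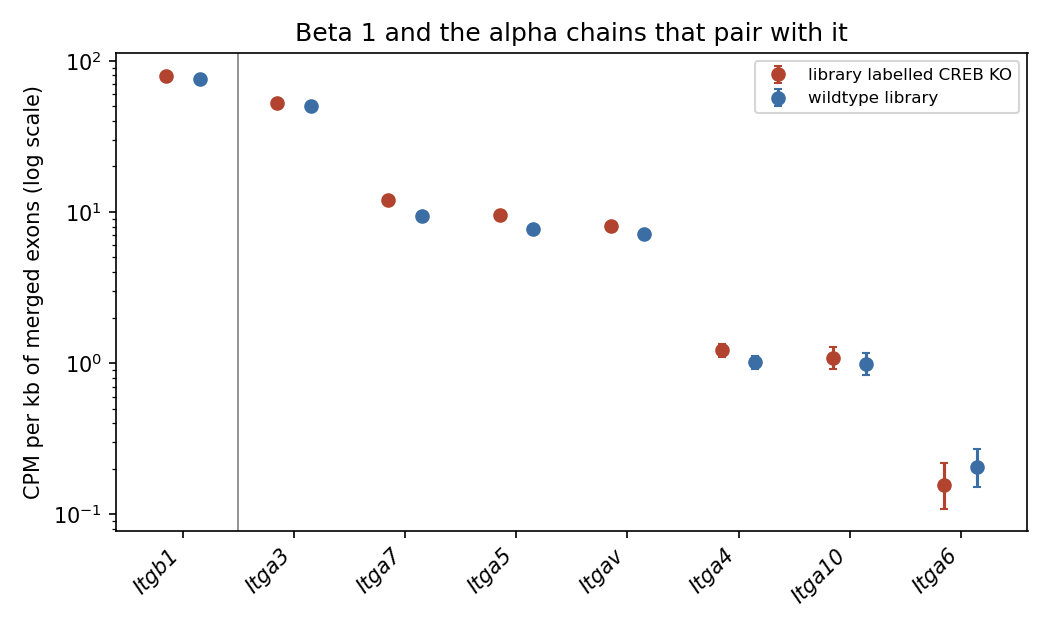
CPM per kb of merged exons, on a log axis with 95% Poisson intervals, for Itgb1 and the measured alpha chains that can pair with it, in the library labelled CREB KO (left point) and the wildtype library (right point). Itga3 comes closest to Itgb1, Itga7, Itga5 and Itgav lie between 7.17 and 11.97, and Itga4 lies near 1.

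Genes that switch integrins on went both ways. Of 19, 16 were measured, 2 were 1.2-fold or more higher in the library labelled CREB KO and 1 was lower, with 13 past neither limit (median log2 ratio -0.07). Beside these counts, and those of each list below, stand the shares of all measured genes, 6.19% higher and 5.48% lower. Rasgrp1, an exchange factor that activates Ras after antigen receptor signalling, had 2962 reads (123 CPM) in the library labelled CREB KO and 2671 reads (101 CPM) in the wildtype library and was 1.22-fold higher (1.16 to 1.29). Rapgef2, an exchange factor for Rap1, was 1.21-fold higher (1.07 to 1.38). Skap1, an adaptor that brings the Rap1 machinery to the membrane, was the 1 lower gene, at 67 reads in the library labelled CREB KO and 117 in the wildtype library, or 1.58-fold lower (1.16 to 2.17). The genes of the core switch stayed within 1.2-fold: the ratio was 1.02 for Tln1 (0.999 to 1.04), 1.04 for Fermt3 (1.02 to 1.06), 0.902 for Rap1a (0.868 to 0.938) and 0.967 for Rap1b (0.945 to 0.990). Apbb1ip, which links Rap1 to talin, had a ratio of 0.870 (0.813 to 0.930) and Rassf5, another effector of Rap1, 0.878 (0.847 to 0.910). Skap1, Tln1, Fermt3, Rap1a, Rap1b, Apbb1ip and Rassf5 were named after their values were seen.

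Of 10 restrainers of integrins, 9 were measured and 0 passed 1.2-fold in either direction (median log2 ratio -0.07). Flna, the actin crosslinker filamin A that competes with talin, had a ratio of 0.989 (0.975 to 1.003), and Cytip, which holds back cytohesin-1, had 0.928 (0.911 to 0.945).

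Among 20 adaptors and kinases of adhesion sites, 15 were measured, 2 were higher and 1 was lower (median log2 ratio 0.10). Actn1, an alpha-actinin that ties integrins to actin, had 3121 reads (130 CPM) in the library labelled CREB KO and 2858 reads (108 CPM) in the wildtype library, 1.204-fold higher (1.14 to 1.27). Tns1, a tensin that binds beta chain tails, was also 1.203-fold higher (1.08 to 1.34). Ptk2, which encodes focal adhesion kinase and was named after its value was seen, had 197 reads in the library labelled CREB KO and 301 in the wildtype library and was 1.39-fold lower (1.15 to 1.67).

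Of 18 genes for integrin ligands, 8 were measured, 6 of them with a ratio above 1; 2 were higher and 1 was lower in the library labelled CREB KO (median log2 ratio 0.18). Lama5, the laminin alpha 5 chain, had 6878 reads (287 CPM) in the library labelled CREB KO and 5393 reads (204 CPM) in the wildtype library and was 1.41-fold higher (1.36 to 1.46). Of genes with 10 CPM or more, 1.01% were as far from 1. Thbs1, which encodes thrombospondin-1, had 114 reads in the library labelled CREB KO and 63 in the wildtype library and was 1.99-fold higher (1.45 to 2.76), whereas Mfge8, an Itgav ligand, had 76 reads in the library labelled CREB KO and 116 in the wildtype library and was 1.38-fold lower (1.03 to 1.87). With the deeper library thinned to the depth of the other in 1 random draw, the interval of Mfge8 took in 1 (0.993 to 1.84 around 1.35-fold lower). Tgfb1, whose latent form binds Itgav integrins, was the most abundant of the list, with a ratio of 0.979 (0.957 to 1.001). Icam1, the ligand of LFA-1, had a ratio of 1.14 (1.08 to 1.201). Thbs1, Mfge8 and Icam1 were named after their values were seen.

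**Figure D5:**
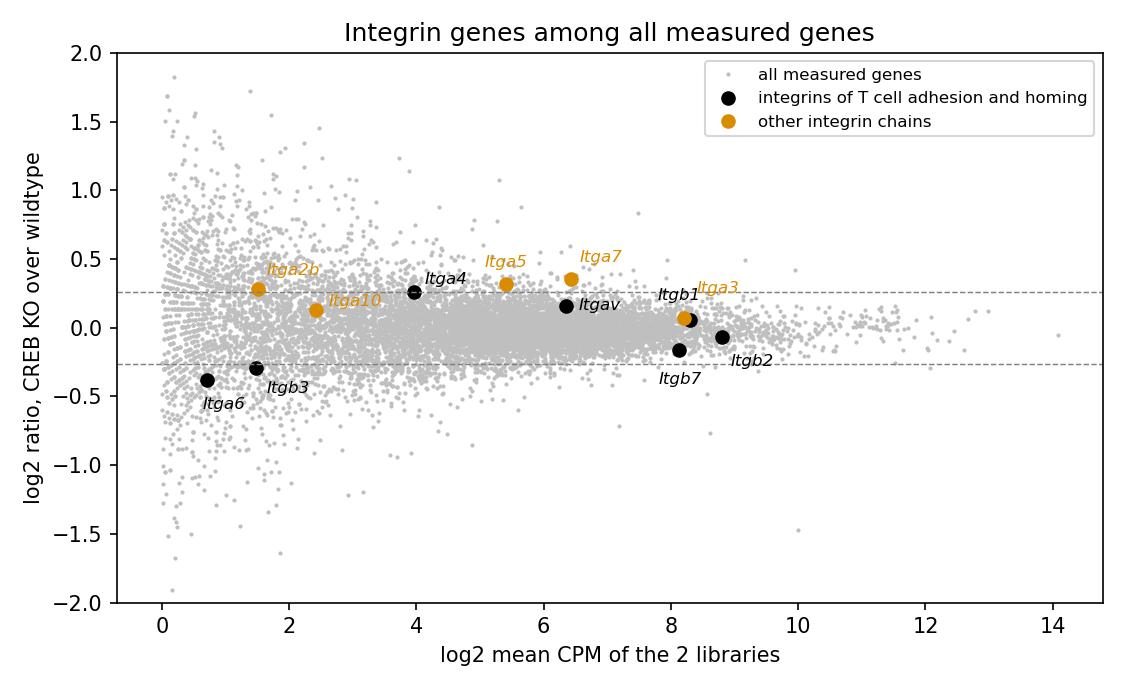
Log2 ratio of the library labelled CREB KO over wildtype against log2 mean CPM for 10462 measured genes (grey), the 7 measured integrins of T cell adhesion and homing (black) and 5 other integrin chains (orange); dashed lines mark 1.2-fold, and 6 genes beyond a log2 ratio of 2 in either direction are outside the plot. Black points lie on or between the lines at high levels, with Itga6 and Itgb3 below the lower line at low levels, while Itga2b, Itga5 and Itga7 lie above the upper line.

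Of 17 selectins and other adhesion receptors, 15 were measured, 0 were higher and 1 was lower (median log2 ratio -0.03). Cd2, the receptor for CD48, had a ratio of 1.01 (0.997 to 1.03), and Selplg, the ligand of P-selectin, had 0.963 (0.941 to 0.984). The 1 lower gene was St3gal6, a sialyltransferase of selectin ligands, with 23 reads in the library labelled CREB KO and 48 in the wildtype library, or 1.88-fold lower (1.13 to 3.26). Of 11 tetraspanins and partners, which organise integrins in the membrane, 9 were measured, 2 were higher and 1 was lower (median log2 ratio -0.01). Cd81 had 4317 reads (180 CPM) in the library labelled CREB KO and 3858 reads (146 CPM) in the wildtype library and was 1.23-fold higher (1.18 to 1.29). Cd9 was 1.22-fold higher (1.12 to 1.32), and the lower gene was Tspan32, with 34 reads in the library labelled CREB KO and 60 in the wildtype library. With the deeper library thinned, the interval of Tspan32 took in 1 (0.979 to 2.44 around 1.53-fold lower). Over all 7 lists, 77 of 111 genes were measured, and of these 77, 10 were higher and 5 lower. Of all 10462 measured genes, 648 were higher (6.19%) and 573 lower (5.48%). Each of the 5 lower list genes averaged under 10 CPM, as did Thbs1 among the higher ones. St3gal6 and Tspan32 were named after their values were seen.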

How the data were processed

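Each deposited table gives raw counts of uniquely assigned reads by gene symbol, per the file headers. Tools in the submitters' processing notes are HTSeq and bcl2fastq, with the build mm10, and per the labels' protocols mRNA was enriched with a bead kit before library preparation. The sources used here do not give the aligner, annotation or strand setting. Nor do they say whether reads shared by several transcripts of a gene counted as uniquely assigned. An unlisted gene was taken as 0 reads; each header total equals the sum of its counts. Libraries were scaled with TMM factors from edgeR 4.0.16 in R 4.3.3. With 1 library per group its quasi-likelihood test could not be fitted, so no p-value was computed. Ratios used a prior count of 0.5 and exact conditional binomial 95% intervals (scipy 1.17.1), and chain contrasts an exact conditional odds ratio. Genes with a mean of 1 CPM were measured. Positions, overlaps and exon lengths come from GENCODE M21 on GRCm38, and transcript numbers and promoters from RefSeq.

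The members and lists were chosen with earlier results of these data known. Named genes are all members, Creb1, up to 4 genes per list past 1.2-fold with 10 CPM or more, and otherwise the 2 most abundant of a list. The steps were tested on simulated counts that held counting error only, so that test does not cover other spread between libraries. Alternatives were scaling by total counts, DESeq2 1.42.0 size factors or upper quartiles, thinning of the deeper library, a prior count of 5, no filter or 10 CPM, 0.5 added to each count of a pair, and other gene lengths.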

Additional observations from a re-analysis of the deposited data

How the results depend on the processing

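The 9 member ratios and 9 chain contrasts with reads kept their direction where their interval excluded 1, and every one stayed inside its own interval, under each alternative run for it. Of the members, 1 (Itga4) passed the 1.2-fold rule with scaling by total counts and with the thinned library, against 0 otherwise, because its ratio lies at the limit. The median log2 ratio of the members turned to 0.05 over those with 10 CPM or more. Over the 7 pathway lists, the 5 genes lower by 1.2-fold became 3 with the thinned library, without Mfge8 and Tspan32, and 0 at 10 CPM, where the 1.5-fold counts of 1 higher and 3 lower also became 0; without the filter those 1.5-fold counts were 4 higher and 5 lower. The 5 pairs with the lower alpha chain stayed 5 for every length and with thinning. Thinning was 1 random draw, so calls near a limit could differ in another draw. No paired analysis was possible because there is 1 library per group, and no library could be left out. Depth limits Itgae, Itgb8, Itgb3 and Itga6, whose counting intervals include 1.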

Other observations

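Among the pathway lists, 29 genes had reads but a mean under 1 CPM, and 5 of them had a counting interval that excludes 1. They were looked at after the values were seen. Cdh1, the E-cadherin gene whose product is bound by CD103, had 8 reads in the library labelled CREB KO and 0 in the wildtype library. Vcam1, the ligand of VLA-4, had 17 reads in the library labelled CREB KO and 6 in the wildtype library, and Spp1, which encodes osteopontin, had 24 in the library labelled CREB KO and 10 in the wildtype library. Lower in the library labelled CREB KO were Jam2, a junctional adhesion molecule, with 4 reads there against 30 in the wildtype library, and Itga9, an alpha chain that pairs with Itgb1, with 0 reads there against 8 in the wildtype library. With so few reads and 1 library per group these are counts of 2 libraries only.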
